A study of Mus musculus with 9 samples.

Results

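The solute carrier (Slc) and ATP-binding cassette (Abc) genes were examined in mouse liver, apart from a few bile salt, iron, cystine and related transporters set aside by name. A gene was included if its symbol followed the Slc, Slco or Abc naming pattern and its raw counts summed to at least 30 over the 9 libraries. The pattern matched 438 of the 24419 symbols in the table, 14 of these were left out by name, and 104 passed the minimum. The total count chose the genes and says nothing here about differences between groups, but because the 14 symbols were removed by name, counts over the 104 do not describe transporters as a whole.

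Solute carriers move sugars, amino acids, ions, vitamins, nucleotides and metabolites across the plasma membrane and the membranes of organelles, by exchange, by co-transport with an ion, or down a gradient. ABC transporters use ATP to pump lipids, sterols, conjugates and drugs, and a few ABC proteins have no membrane part. In liver, hepatocytes carry both kinds on the side that faces the blood and on the side that faces the bile canaliculus, and their set of transporters sets what they can take up and secrete.

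RNA was taken from whole liver of 9 male FVB mice on a normal diet, 3 in each of 3 groups, with 1 library per mouse. MODEL1 mice, each 18 weeks old, carried plasmids for NFE2L2 G31A, a changed form of the transcription factor NRF2, and CTNNB1 T41A, a changed form of beta-catenin. MODEL2 mice, 19, 20 and 22 weeks old, carried NFE2L2 T80K with the same CTNNB1 T41A. Each plasmid was given at 20 µg with 1.6 µg of Sleeping Beauty transposase, which inserts the cargo into the genome, in 2 ml of saline pushed quickly into the tail vein, a route that reaches some hepatocytes and leaves the others unmodified. CTRL mice were 13, 13 and 17 weeks old. The labels do not say what they received, while the study's design text describes a control with wild-type NFE2L2 and CTNNB1 T41A. Neither model carried the NFE2L2 change or the CTNNB1 change alone. With what CTRL received not settled, the effects of the 2 changes cannot be told apart here, and no CTRL mouse was as old as a model mouse. The edgeR p-values below set group differences against the spread between these mice, estimated with information shared across genes.

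Libraries held 219504 to 325177 counts, and CPM values are counts scaled by the library size after TMM normalization to a common total. On this scale 3 counts, about the 95% upper limit for an observed 0, stood for 8.78 to 13.6 CPM. Rn45s, the ribosomal RNA precursor, took 2.20% to 13.4% of the counts, and CTRL 1, MODEL1 1 and MODEL1 3 were the 3 libraries richest in it. The 6 hepatocyte markers (Alb, Apoa1, Ttr, Serpina1a, Fgb, Cyp3a11) were all detected and summed to 2120 to 2612 CPM in CTRL, 799 to 1262 in MODEL1 and 1117 to 1552 in MODEL2. The 6 endothelial markers summed to 335 to 452, 166 to 233 and 211 to 406 CPM, and the 6 Kupffer cell and macrophage markers, with Adgre1 at 0, to 15.1 to 27.1, 52.7 to 75.2 and 3.58 to 36.2 CPM. The 6 stellate markers summed to 4.52 to 22.6, 14.1 to 20.5 and 0 to 7.58 CPM, and the 6 cholangiocyte markers, with Krt7, Epcam and Spp1 at 0, to 0 in CTRL, 10.6 to 11.9 in MODEL1 and 0 to 4.02 in MODEL2. Erythroid markers, with Hbb-bs and Hba-a1 at 0, summed to 131 to 467, 332 to 410 and 136 to 278 CPM. T cell and B cell markers (Cd3d, Cd4, Cd79b and Ms4a1 at 0) summed to at most 3 counts in every library, and the 3 neutrophil markers in the table (S100a8, S100a9, Mpo) were at 0. The part that these cell types had in the transporter results was not tested, and in bulk liver fewer cells of a type cannot be told apart from less RNA per cell.

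The 104 genes comprised 94 Slc symbols, 10 Abc symbols and 0 Slco symbols. The Slc symbols included 3 that encode no carrier: Slc9a3r1, a scaffold protein, Slc13a2os, an antisense RNA, and Slc2a4rg-ps, a pseudogene. The genes together held 17791 counts, 0.736% of all counts and 0.630% to 0.902% of those of a library, with a median total of 75.5 per gene. Their summed level was 7032 to 7511 CPM in CTRL, 7353 to 7864 in MODEL1 and 6951 to 7485 in MODEL2, so the groups overlapped as a sum. Just inside the minimum lay Slc25a42 with 30 counts, Slc37a2 with 30 and Slc30a1 with 32, and just outside it Abca6, Abcf2 and Slc50a1 with 29 each. A further 104 symbols of the naming pattern had 0 counts in all libraries, among the 320 below the minimum.

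The 10 genes with the most counts held 8599 counts, 48.3% of those of all 104. They included Slc5a6 (1834 counts), which carries biotin and pantothenate, Abcg8 (1238), one of the paired sterol pumps of the bile canaliculus, Slc5a2 (1144), the sodium-glucose carrier known from kidney, Slc18a2 (893), which loads monoamines into vesicles, Slc24a5 (870), a potassium-dependent sodium-calcium exchanger known from pigment cells, and Slc3a1 (725), the heavy chain of a cystine and dibasic amino acid carrier. Slc22a23 (545), an orphan of the organic ion carriers, Slc16a4 (501), of the monocarboxylate carriers, and Slc35e2 (489), an orphan of the nucleotide sugar carriers, followed. Per kilobase of exon the mean level over the 9 libraries was highest for Slc5a6 (192 CPM per kb), Slc5a2 (164), Slc24a5 (152), Abcg8 (137) and Slc3a1 (133). It was 71.0 CPM per kb for Slc18a2, 54.1 for Slc16a4, 33.7 for Slc22a23 and 30.8 for Slc35e2.

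**Figure D1:**
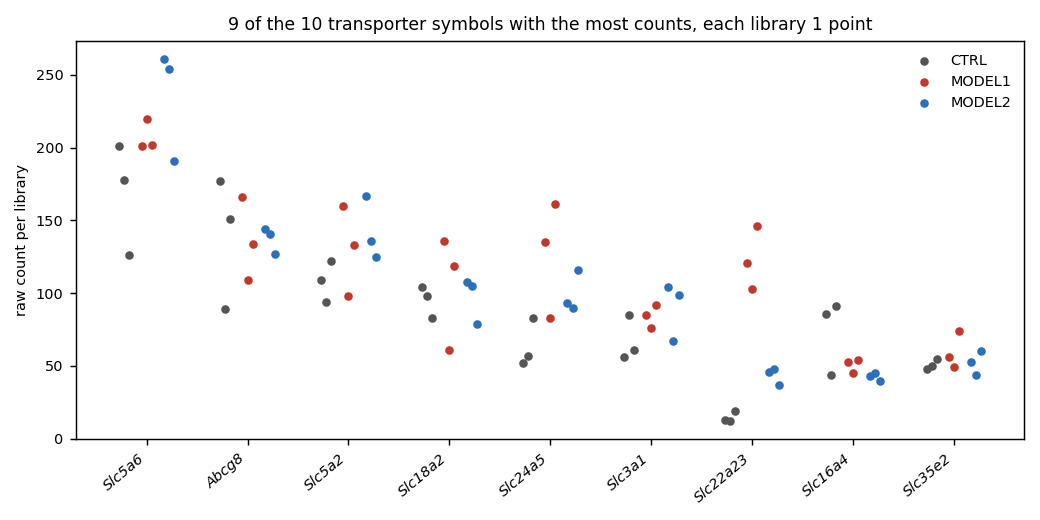
Raw counts per library (y axis, linear from 0) of 9 of the 10 transporter symbols with the most counts, 1 point per library, coloured by group. CTRL, MODEL1 and MODEL2 points overlap for Abcg8, Slc18a2, Slc3a1 and Slc35e2, while the CTRL points of Slc22a23 lie below all others.

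Many of these symbols lie opposite another gene. Of the 104 genes, 45 (43.3%) shared exon bases with a gene read from the other strand, and these held 65.5% of the counts. Over all placed symbols, 24.2% had such an overlap and held 79.0% of the counts. Whether reads were counted by strand is not given in the sources used here, so the reads of such a pair cannot be told apart. Among the 10 largest, 8 had one, including Slc5a6 with Atraid, Abcg8 with Abcg5, Slc5a2 with BC017158, Slc18a2 with Gm29261, Slc24a5 with Myef2, Slc3a1 with Prepl and Slc35e2 with Gm16023. Abcg8 and Abcg5 work as an obligate pair, yet Abcg8 held 1238 counts and Abcg5 held 8. Slc2a2, the main hepatocyte glucose carrier, held 25, and Slc25a20, Hbb-bs and Hba-a1 held 0. For genes with no overlap too, whether the counts under a symbol came from its own mRNA was not tested. Slc3a1 was at 211, 384 and 238 CPM in CTRL, 300, 301 and 269 in MODEL1 and 372, 270 and 375 in MODEL2, with overlapping groups, although Prepl, which shares 26.5% of the Slc3a1 exon bases, fell from 1101 counts in CTRL to 328 in MODEL1 and held 1329 in MODEL2 (log2 fold change of MODEL1 against CTRL -2.01 ± 0.24, SE; edgeR adjusted p = 1.2e-06).

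The low-count filter of edgeR left 2639 symbols to test, 55 of the 104 among them. A gene can pass this filter through the group in which it is high, so the calls below describe those 55 alone. The other 49, with 30 to 76 counts each, fell below the filter and are given by counts. Of the 55, 31 had an opposite-strand exon and 24 had none. A call is an edgeR quasi-likelihood F test with a Benjamini-Hochberg adjusted p under 0.05 over all 2639 symbols.

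In MODEL1 liver, counts under 8 carrier symbols were higher than in CTRL. They belong to carriers of urate and organic ions (Slc22a12, Slc22a23), amino acids and taurine (Slc38a11, Slc6a6) and monocarboxylates (Slc16a11). The phosphate and organic anion carrier Slc17a1 and the exchangers Slc26a1 and Slc24a5 complete the 8. The neutral amino acid carrier Slc38a4, the vitamin C carrier Slc23a1, the organic anion carrier Slc17a3, the cation exchanger Slc24a1 and the lipid pump family member Abca9 were lower. Thus 8 of the 55 were called higher, beside 11.9% of all tested symbols, and 5 were called lower, beside 11% of all. In either direction the background was 22.8%, and the median log2 fold change was -0.08 over the 55 and -0.00 over all. The other 42 lay between -1.21 and 1.47 on the log2 scale. The number called lower was 2 without CTRL 1, 3 without MODEL1 1 and 2 without MODEL1 3, and 0 with age in the model. In that order these fits called 18.5%, 18.7%, 17.1% and 11.3% of all symbols in either direction.

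In MODEL2 liver, Slc22a12, Slc22a23, Slc38a11, Slc16a11 and Slc17a1 were higher than in CTRL, as was Slc16a1, the main lactate and pyruvate carrier of many cells, and Slc16a4, Slc17a3 and Slc24a1 were lower. Calls numbered 6 higher, beside 8.3% of all symbols, and 3 lower, beside 4.96%, with 13.3% called in either direction. The remaining 46 lay between -1.42 and 1.10, and the median of the 55 was -0.13, against 0.00 over all. The number called higher was 3 without CTRL 1. The number called lower was 0 without CTRL 1 or without MODEL2 3, and 1 without MODEL1 3, MODEL2 1 or MODEL2 2. These fits called 7.69% to 10.9% of all symbols in either direction. Both models were compared with the same 3 CTRL libraries, so their calls are not independent of each other.

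The models differed in their NFE2L2 change and also in age, since every MODEL2 mouse was older than every MODEL1 mouse, and the direct comparison cannot tell these apart. Slc22a23, Slc26a1 and Slc6a6 were lower in MODEL2, so 3 of 55 were called lower, beside 3.41% of all symbols. None of the 55 was called higher by edgeR, beside 3.87% of all, and DESeq2 called none higher either. In either direction 7.28% of all symbols were called, and at an unadjusted p under 0.05 the 55 held 9, beside 20.7% of all symbols. The other 52 lay between -1.11 and 1.71. Without MODEL1 1, 1 was called higher, Abca9, in a fit that called 4.7% of all symbols in either direction.

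**Figure D2:**
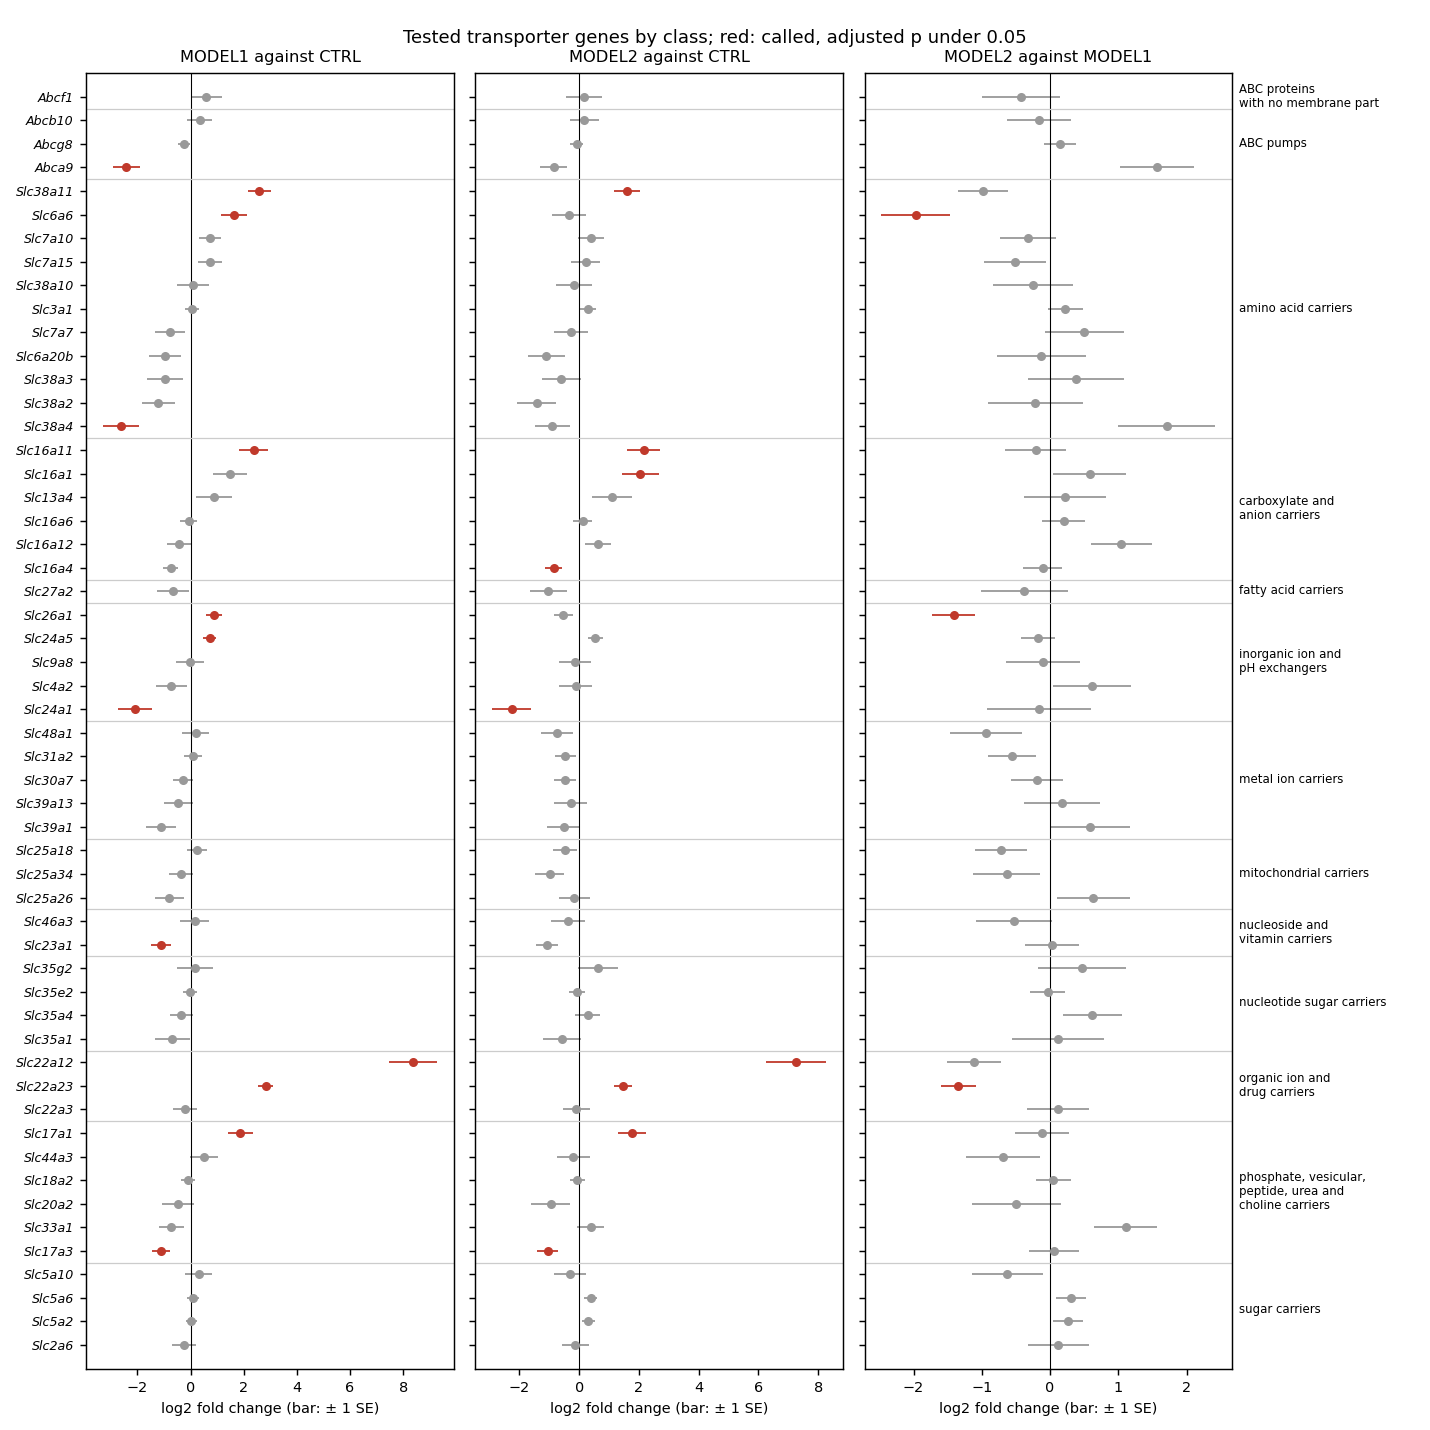
Log2 fold change with ± 1 SE (x axis) of 54 of the 55 tested transporter genes (y axis, grouped by class) in each of the 3 comparisons, from the edgeR fit; called genes are red. In MODEL1 against CTRL 8 red points lie right of 0 and 5 left of it, and the point of Slc22a12, which has 0 counts in CTRL, depends on the prior count of the fit and is no measured fold.

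The stretch of 250 bases before the RefSeq start site (build GRCm38.p6) is given for 3 of the called genes that had a window free of annotated exons: the one gene called in all 3 comparisons, a phosphate family carrier higher in both models, and the lactate carrier called in MODEL2. The Slc22a23 window is chr13:34345219-34345468 on the minus strand, the first of the 2 Slc17a1 windows chr13:23868768-23869017 on the plus strand (the second, not printed, overlaps an exon of the gene), and the Slc16a1 window chr3:104638414-104638663 on the plus strand, each printed from 5′ to 3′. Capitals mark the match to the core of the antioxidant response element that NRF2 binds, TGACNNNGC, here read on the minus strand.
Slc22a23: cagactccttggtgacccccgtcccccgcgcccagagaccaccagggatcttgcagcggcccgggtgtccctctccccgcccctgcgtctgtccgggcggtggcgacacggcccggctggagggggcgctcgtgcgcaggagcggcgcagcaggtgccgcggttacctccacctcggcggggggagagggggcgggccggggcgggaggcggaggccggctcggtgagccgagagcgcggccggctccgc
Slc17a1: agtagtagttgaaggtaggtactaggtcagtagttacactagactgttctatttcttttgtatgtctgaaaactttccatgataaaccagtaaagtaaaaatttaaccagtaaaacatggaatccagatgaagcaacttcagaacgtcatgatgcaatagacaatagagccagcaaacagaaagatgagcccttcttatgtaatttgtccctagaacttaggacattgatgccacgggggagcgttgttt
Slc16a1: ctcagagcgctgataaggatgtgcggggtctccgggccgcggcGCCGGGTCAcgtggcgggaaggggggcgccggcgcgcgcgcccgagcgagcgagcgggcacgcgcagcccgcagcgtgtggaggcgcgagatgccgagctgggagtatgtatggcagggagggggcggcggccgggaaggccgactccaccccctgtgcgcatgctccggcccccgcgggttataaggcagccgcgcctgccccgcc
The core (searched on both strands) lay in 10.2% of all 32851 windows in the RefSeq table, in 16 of the 114 windows of the transporter genes (14.0%), and in 2 of the 17 windows of called genes (11.8%). The TCF/LEF letters CTTTGAT, recognised by the partners of beta-catenin, lay in 3.21% of all windows, in 2 of the 114 and in 0 of the 17. Genes called higher in both models had 6 windows, with 0 matches to either set of letters. Windows were found for 80 of the 104 genes and for 13 of the 15 called in any comparison, and a match or its absence describes these letters alone.

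Slc22a23 had the most counts of the organic ion carriers and belongs to the family of organic cation and anion transporters, with no settled substrate. It lies on chromosome 13 from 34179158 to 34345182 (mm10) with no opposite-strand exon. Its level was 48.9, 54.3 and 74.2 CPM in CTRL, 428, 408 and 427 in MODEL1 and 165, 193 and 140 in MODEL2. No groups overlapped, with MODEL2 between CTRL and MODEL1. It rose by 2.82 ± 0.29 (log2, SE) in MODEL1 and by 1.48 ± 0.30 in MODEL2 (edgeR adjusted p = 1.8e-07 and 0.0017), and MODEL2 was lower than MODEL1 by -1.34 ± 0.26 (adjusted p = 0.0024). The MODEL1 call held in all 19 alternatives. The MODEL2 call ended with age as a covariate (1.23, adjusted p = 0.458), and the call between the models without the 3 libraries richest in Rn45s (-1.21, adjusted p = 0.114).

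Slc22a12 encodes URAT1, the urate exchanger of the kidney tubule. It was at 0 in all CTRL libraries, at 134, 174 and 155 CPM in MODEL1 and at 71.5, 105 and 37.9 in MODEL2. The counts summed to 0, 135 and 56. After scaling, MODEL1 stood at 38.1 times and MODEL2 at 17.5 times the level of 3 counts over the CTRL libraries. Both differences were called (edgeR adjusted p = 5.9e-07 and 3.3e-05), but the gene passed the count filter only through the groups where it was high, so these p-values add nothing to the counts themselves. The model groups did not overlap, but MODEL2 against MODEL1 was not called (-1.11 ± 0.40, adjusted p = 0.106; 0.0429 when only these 6 libraries were fitted).

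Slc22a12 lies on chromosome 19 from 6535845 to 6543032, where 30.1% of its exon bases are shared with Nrxn2, a neuronal adhesion protein. Nrxn2 held 22, 572 and 701 counts in CTRL, MODEL1 and MODEL2, log2 fold changes of 4.45 ± 0.31 and 4.89 ± 0.31 against CTRL. Between the models Nrxn2 differed by 0.44 ± 0.23 (edgeR adjusted p = 0.288), with the MODEL2 mean above that of MODEL1, the reverse of the order of Slc22a12. Which of the 2 genes gave the reads cannot be told apart.

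**Figure D3:**
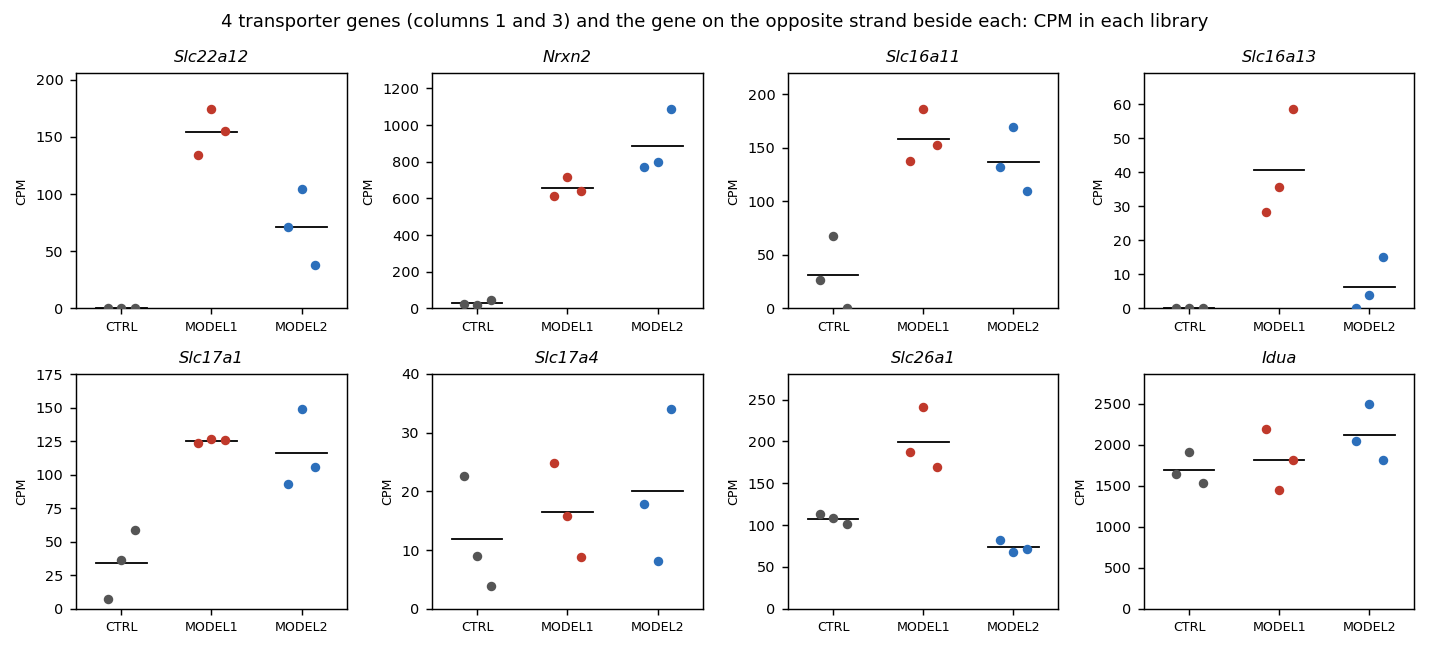
CPM per library (y axis, linear from 0, bar at the group mean) of 4 transporter genes in columns 1 and 3 and of the gene on the opposite strand beside each in columns 2 and 4. Slc22a12 and Nrxn2 are both near 0 in CTRL and high in both models, while Idua, with 1604 and 1670 counts in the models, does not step down from MODEL1 to MODEL2 as Slc26a1 does.

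Slc22a3, an organic cation carrier and the third tested gene of the class, was not called in any comparison (-0.21 ± 0.45 in MODEL1 and -0.09 ± 0.45 in MODEL2).

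Slc17a1 and Slc17a3, which encode phosphate family carriers that move organic anions such as urate, are neighbours on chromosome 13 (23867750 to 23895730 and 23839434 to 23860716, both on the plus strand) and moved in opposite directions. Slc17a1 was at 7.53, 36.2 and 58.6 CPM in CTRL, 124, 127 and 126 in MODEL1 and 93.0, 149 and 106 in MODEL2. All model libraries lay above all CTRL libraries, and MODEL1 spread the least. Since Slc17a1 passed the count filter through the models, where it was high, its calls add nothing to the counts themselves. It rose by 1.88 ± 0.46 in MODEL1 and by 1.76 ± 0.47 in MODEL2 (edgeR adjusted p = 0.0044 and 0.013). Slc17a3 was at 245, 185 and 145 CPM in CTRL, 56.6, 119 and 90.7 in MODEL1 and 82.3, 76.5 and 117 in MODEL2, below CTRL in every model library. It fell by 1.11 ± 0.35 and by 1.05 ± 0.35 (edgeR adjusted p = 0.021 and 0.048). Slc17a4, whose end lies 160 bp from that of Slc17a1 on the other strand, held 9, 14 and 16 counts in the groups.

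Of the Slc17 calls, that of Slc17a1 in MODEL1 held without any single library. Both Slc17a1 calls ended with age in the model (log2 fold changes 1.16 and 0.53, edgeR adjusted p = 0.306 and 0.877) and without the 3 Rn45s-rich libraries (1.34 and 1.29, adjusted p = 0.171 and 0.109). In MODEL2 the Slc17a1 call also ended without CTRL 1 or MODEL2 2 (0.0763 and 0.0726), and the size was 2.54 and 2.43 without CTRL 3. The Slc17a3 call in MODEL1 ended with age (-0.93, adjusted p = 0.334), without the Rn45s-rich libraries (-0.53, adjusted p = 0.606), and without CTRL 1, MODEL1 1 or MODEL1 3 (0.0626 to 0.124). In MODEL2 it ended with age (-0.75, adjusted p = 0.761), without the Rn45s-rich libraries (-0.81, adjusted p = 0.26), and without CTRL 1, CTRL 2, MODEL1 3 or any MODEL2 library (0.0539 to 0.233).

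Among monocarboxylate carriers, Slc16a11 and Slc16a1 were called higher and Slc16a4 lower, in different comparisons. Slc16a11, a family member studied for its link to lipid metabolism in liver, lies on chromosome 11 from 70212752 to 70216417. It was at 26.3, 67.8 and 0 CPM in CTRL, 138, 186 and 152 in MODEL1 and 132, 169 and 110 in MODEL2. Every model library lay above every CTRL library, and the 2 models overlapped. High counts in the models brought Slc16a11 past the count filter, so its calls, here and in the alternatives, add nothing to the counts themselves. It rose by 2.37 ± 0.54 in MODEL1 and by 2.16 ± 0.55 in MODEL2 (edgeR adjusted p = 0.0023 and 0.00935). The MODEL1 call held in all 19 alternatives, and the MODEL2 call in all but the one without the Rn45s-rich libraries (2.09, adjusted p = 0.0577). With age the values were 4.20 and 4.99. The size rested on single CTRL libraries: it was 3.50 and 3.30 without CTRL 2, and 1.75 and 1.55 without CTRL 3.

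Slc16a13, another family member, faces Slc16a11 on the other strand with 372 bp between the gene ends. It was below the filter and held 0, 0 and 0 counts in CTRL, 8, 9 and 20 in MODEL1 and 0, 1 and 4 in MODEL2. MODEL1 did not overlap with either group. The MODEL1 sum of 37 stood at 10.5 times the level of 3 counts over CTRL. The MODEL2 sum of 5 stood at a ratio of 0.150 (95% counting interval 0.0459 to 0.382) to that of MODEL1. The neighbours therefore differed in pattern, with Slc16a11 at like levels in both models.

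Slc16a1 encodes MCT1. It was at 7.53, 13.6 and 15.6 CPM in CTRL, 21.2, 27.7 and 52.7 in MODEL1 and 46.5, 48.3 and 60.6 in MODEL2. Both models lay above CTRL and overlapped with each other. The gene passed the count filter through its MODEL2 libraries, where it was high, so its MODEL2 call adds nothing to the counts themselves. It rose by 2.05 ± 0.63 in MODEL2 (edgeR adjusted p = 0.031), while the MODEL1 difference of 1.47 ± 0.64 and that between the models, 0.58 ± 0.53, were not called (0.108 and 0.601). Slc16a4, a family member without a settled substrate, was at 324, 199 and 355 CPM in CTRL, 187, 178 and 158 in MODEL1 and 154, 181 and 152 in MODEL2. Its model libraries lay below CTRL, with CTRL 2 closest to them. It fell by 0.86 ± 0.28 in MODEL2 (edgeR adjusted p = 0.046), and in MODEL1 it differed by -0.75 ± 0.28 (0.0545; 0.014 without CTRL 2). The Slc16a1 call ended without each library in turn other than MODEL1 1 and MODEL1 2 (0.0515 to 0.145), and the Slc16a4 call without each other than CTRL 2 (0.0504 to 0.163). Both ended with age (1.24 and -1.28, adjusted p = 0.770 and 0.340) and without the Rn45s-rich libraries (1.81 and -0.76, adjusted p = 0.159 and 0.223).

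**Figure D4:**
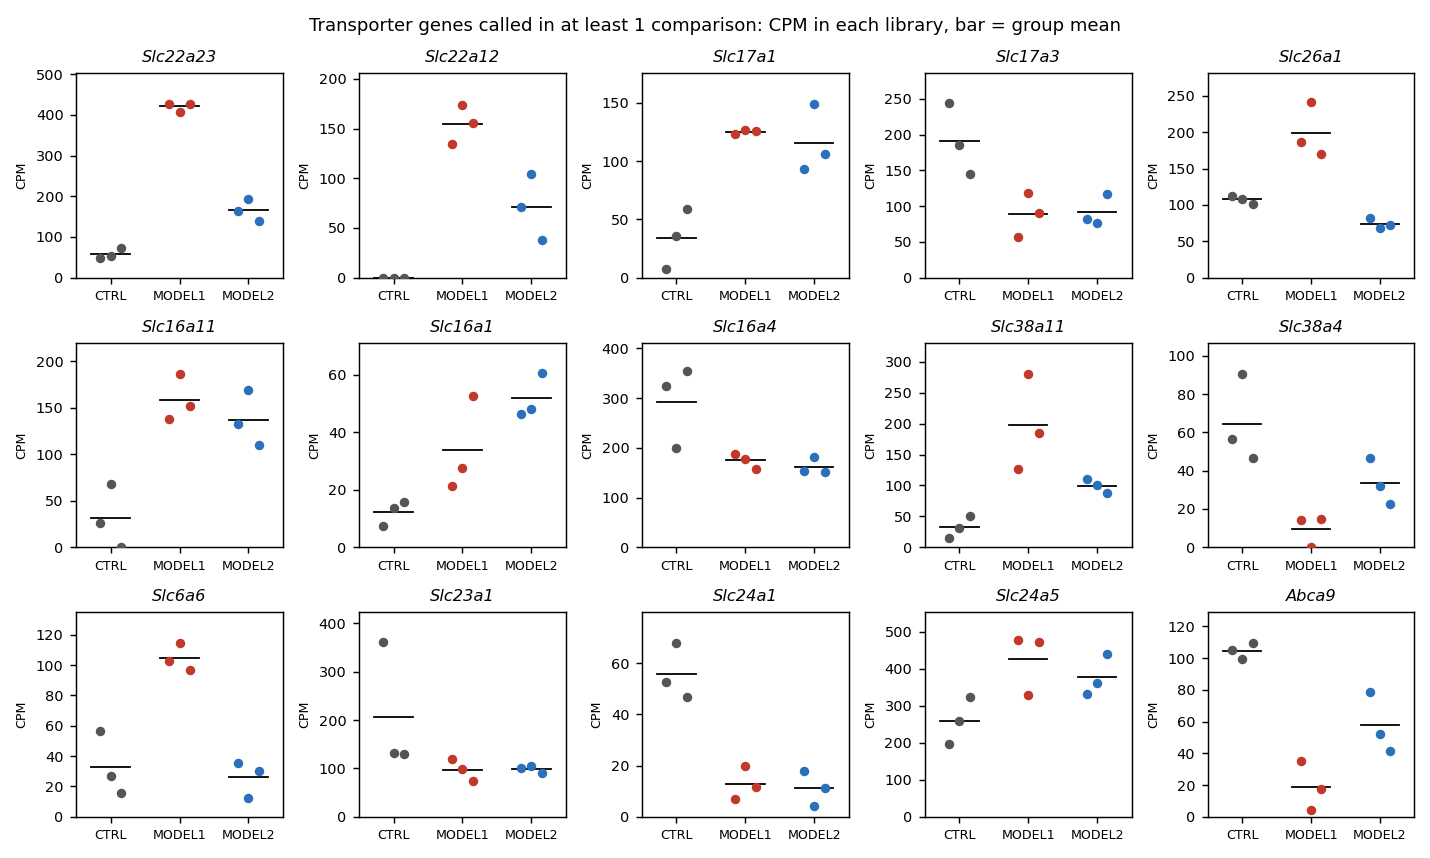
CPM per library (y axis, linear from 0, a scale per panel) of the 15 transporter genes called in at least 1 comparison, with a bar at the mean of each group of 3. Slc22a23 steps down from MODEL1 to MODEL2 to CTRL, Slc26a1 and Slc6a6 are high in MODEL1 alone, and Slc38a4 and Abca9 are lowest in MODEL1.

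Among amino acid carriers, 11 of 16 were tested, and 2 were called higher and 1 lower in MODEL1, 1 higher in MODEL2 and 1 lower between the models. Over all symbols 22.8%, 13.3% and 7.28% were called in these comparisons. Slc38a11, an orphan of the sodium-coupled neutral amino acid carriers (chromosome 2, 65316430 to 65364034), was at 15.1, 31.7 and 50.8 CPM in CTRL, 127, 281 and 184 in MODEL1 and 111, 101 and 87.1 in MODEL2. No groups overlapped. Its model libraries, where it was high, brought Slc38a11 past the count filter. Its calls, here and in the alternatives, therefore add nothing to the counts themselves. It rose by 2.59 ± 0.42 in MODEL1 and by 1.61 ± 0.44 in MODEL2 (edgeR adjusted p = 8.5e-05 and 0.017), and the models differed by -0.98 ± 0.37 (0.120), which was not called. The MODEL1 call held in all 19 alternatives. The MODEL2 call ended with age (0.95, adjusted p = 0.724), without the Rn45s-rich libraries (1.27, adjusted p = 0.107), without CTRL 1 (0.106) and without MODEL2 1 (0.0555).

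Slc38a4, which encodes the neutral amino acid carrier SNAT4 of hepatocytes, went the other way in MODEL1. It was at 56.5, 90.4 and 46.9 CPM in CTRL, 14.1, 0 and 14.6 in MODEL1 and 46.5, 32.2 and 22.7 in MODEL2. MODEL1 lay below both groups, near the level of 3 counts, and MODEL2 lay just below CTRL. The gene passed the count filter through its CTRL libraries, where it was high, so its call adds nothing to the counts themselves. It fell by 2.62 ± 0.68 in MODEL1 (edgeR adjusted p = 0.0065), a call that ended with age in the model alone (-1.84, adjusted p = 0.270). MODEL2 differed from CTRL by -0.91 ± 0.59 (0.350) and from MODEL1 by 1.71 ± 0.71 (0.169), and neither was called.

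Slc6a6, the taurine carrier, was at 56.5, 27.1 and 15.6 CPM in CTRL, 103, 115 and 96.6 in MODEL1 and 35.8, 12.1 and 30.3 in MODEL2. MODEL1 lay above both other groups, which overlapped. The gene passed the count filter through its MODEL1 libraries, where it was high, so its calls add nothing to the counts themselves. It rose by 1.63 ± 0.49 in MODEL1 (edgeR adjusted p = 0.018; 2.29 without CTRL 1), and MODEL2 was lower than MODEL1 by -1.97 ± 0.50 (0.020). An exon of Gm44981 covers 1.38% of its exon bases. The MODEL1 call ended with age (2.57, adjusted p = 0.0630) and without the Rn45s-rich libraries (2.35, adjusted p = 0.0718), both with a larger fold, and without CTRL 2, CTRL 3 or MODEL1 2 (0.0529 to 0.0864). The call between the models ended with age (-1.43, adjusted p = 0.264), without the Rn45s-rich libraries (-2.02, adjusted p = 0.147) and without MODEL1 2, MODEL1 3, MODEL2 2 or MODEL2 3 (0.0529 to 0.0837).

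Slc26a1, a sulfate and oxalate exchanger of hepatocyte and kidney membranes, differed between the 2 models. It was at 113, 109 and 102 CPM in CTRL, 187, 241 and 170 in MODEL1 and 82.3, 68.4 and 72.0 in MODEL2. No groups overlapped, with MODEL1 above and MODEL2 below CTRL. It rose by 0.88 ± 0.30 in MODEL1 (edgeR adjusted p = 0.038), differed by -0.53 ± 0.33 in MODEL2 (0.327), and was lower in MODEL2 than in MODEL1 by -1.41 ± 0.31 (0.0071). Idua, whose exons cover 3.48% of its exon bases, held 1252, 1604 and 1670 counts in CTRL, MODEL1 and MODEL2 and was not called. The MODEL1 call ended without each CTRL or MODEL1 library in turn (0.0512 to 0.128), with age (1.02, adjusted p = 0.216) and without the Rn45s-rich libraries (1.14, adjusted p = 0.160). The call between the models held without each single library, and ended with age (-1.33, adjusted p = 0.0636) and without the Rn45s-rich libraries (-1.61, adjusted p = 0.0587).

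Of the potassium-dependent sodium-calcium exchangers, Slc24a1, known from photoreceptors, was at 52.7, 67.8 and 46.9 CPM in CTRL, 7.07, 19.8 and 11.7 in MODEL1 and 17.9, 4.02 and 11.4 in MODEL2. Every model library lay below CTRL. The gene passed the count filter only through CTRL, where it was high, so its calls add nothing to the counts themselves. It fell by 2.10 ± 0.64 and by 2.25 ± 0.66 (edgeR adjusted p = 0.019 and 0.024). Slc24a5 was at 196, 258 and 324 CPM in CTRL, 477, 328 and 471 in MODEL1 and 333, 362 and 439 in MODEL2. Its highest CTRL library was just below the lowest model library. It rose by 0.72 ± 0.25 in MODEL1 (edgeR adjusted p = 0.043), and MODEL2 differed by 0.54 ± 0.25 (0.178). Myef2, with 21, 26 and 30 counts in the groups, shares 39.5% of its exon bases.

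The Slc24a1 calls ended with age (-1.71 and -1.64, edgeR adjusted p = 0.314 and 0.656) and without the Rn45s-rich libraries (-1.57 and -2.27, adjusted p = 0.451 and 0.107). They also ended in MODEL1 without CTRL 1, CTRL 2, MODEL1 1 or MODEL1 3 (edgeR adjusted p 0.0686 to 0.0957), and in MODEL2 without any CTRL library, MODEL2 2 or MODEL2 3 (0.0514 to 0.129). The Slc24a5 call ended without each library in turn other than CTRL 3 and MODEL1 2 (0.0591 to 0.192), with age (0.26, adjusted p = 0.743) and without the Rn45s-rich libraries (0.11, adjusted p = 0.902).

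Slc23a1, the sodium-coupled vitamin C carrier SVCT1, was at 361, 131 and 129 CPM in CTRL, 120, 98.9 and 73.2 in MODEL1 and 100, 105 and 90.9 in MODEL2. CTRL 1 stood far above the other CTRL libraries, which lay just above the models. It fell by 1.10 ± 0.38 in MODEL1 (edgeR adjusted p = 0.039), and MODEL2 differed by -1.08 ± 0.38 (0.0677). Without CTRL 1 the differences were -0.42 and -0.39 (0.518 and 0.630), and in MODEL2 the gene was called without CTRL 2 (0.023) or CTRL 3 (0.024). The MODEL1 call also ended without MODEL1 2, MODEL1 3 or MODEL2 3 (from 0.0512), with age (-0.37, adjusted p = 0.785) and without the Rn45s-rich libraries (-0.45, adjusted p = 0.668).

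Abca9, a member of the ABCA subfamily of lipid pumps, was the only one of the 4 tested Abc genes to be called. It was at 105, 99.5 and 109 CPM in CTRL, 35.3, 3.96 and 17.6 in MODEL1 and 78.7, 52.3 and 41.7 in MODEL2. No groups overlapped, with MODEL1 lowest. It fell by 2.42 ± 0.52 in MODEL1 (edgeR adjusted p = 0.0014; -3.13 without MODEL1 1), a call that ended with age alone (-2.21, adjusted p = 0.0524). Without the Rn45s-rich libraries, with MODEL1 2 as the one MODEL1 library, the value was -4.61. MODEL2 differed from CTRL by -0.85 ± 0.46 (0.256) and from MODEL1 by 1.56 ± 0.54 (0.0900), with a value of 2.28 (0.037) without MODEL1 1.

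Several classes had no called gene in any comparison, and they are set together here for that reason. Over all symbols 22.8%, 13.3% and 7.28% were called in the 3 comparisons. With few genes tested per class, a lack of calls does not show that a class was unchanged. The Slc2, Slc5 and Slc37 families, mostly sugar carriers, had 4 of 8 genes tested, with log2 fold changes of -0.25 to 0.31 in MODEL1 and -0.31 to 0.38 in MODEL2. Slc5a6 differed by 0.08 ± 0.23 and 0.38 ± 0.23 in the models, and Slc5a2 by 0.03 ± 0.22 and 0.30 ± 0.22. The Slc25 mitochondrial carriers had 3 of 10 tested (-0.80 to 0.24 in MODEL1), the Slc35 nucleotide sugar carriers 4 of 7 (-0.69 to 0.17) and the zinc, copper and heme carriers 5 of 9 (-1.11 to 0.19). The unadjusted p of every tested gene in these 4 classes was above 0.05 in all 3 comparisons, by edgeR. Over all symbols, 33.6%, 26.2% and 20.7% had an unadjusted p under 0.05. Standard errors over uncalled genes ran from 0.22 to 0.68 in MODEL1. Among the largest genes, Slc18a2 (-0.11 ± 0.26 and -0.06 ± 0.26) and Slc35e2 (-0.03 ± 0.26 and -0.06 ± 0.26) were also not called.

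A list of 32 hepatocyte transporters was read as a whole. Of these, 14 were among the 104 genes, 18 had fewer than 30 counts, and 7 were tested. In MODEL1 0 were higher and 2 were lower (Slc23a1 and Slc38a4), and in MODEL2 1 was higher (Slc16a1) and 0 lower, with 0 called between the models. Over all symbols 11.9% were higher and 11% lower in MODEL1, and the MODEL2 shares were 8.3% and 4.96%. The unadjusted p was under 0.05 for 3 of the 7 in each model against CTRL, beside 33.6% and 26.2% of all symbols, and for 1 between the models, beside 20.7%. Over the 7, the median log2 fold change was -0.98 in MODEL1 and -0.91 in MODEL2, beside -0.00 and 0.00 over all symbols. It covers only those of the list that passed the filter, Slc38a4 among them through its CTRL libraries. The sums of hepatocyte markers were lower in every model library than in every CTRL library, and a link to the 7 was not tested. The uncalled ones were Slc38a2, a widely expressed neutral amino acid carrier (-1.21 ± 0.63 and -1.42 ± 0.65), Slc38a3, the glutamine carrier SNAT3 (-0.98 ± 0.68 and -0.60 ± 0.66), Slc27a2, which activates and takes up fatty acids (-0.66 ± 0.59 and -1.04 ± 0.61), and Abcg8 (-0.24 ± 0.23 and -0.09 ± 0.23). Without CTRL 1 the Slc27a2 value was 0.08 in MODEL1 and -0.29 in MODEL2, and without CTRL 3 that of Slc38a3 was -0.16 and 0.22.

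Hepatocyte transporters below the filter were given by their counts in CTRL, MODEL1 and MODEL2. The glucose-6-phosphate carrier Slc37a4 held 18, 17 and 13, the cationic amino acid carrier Slc7a2 18, 12 and 8, and the mitochondrial carrier Slc25a47 21, 13 and 4. The cholesterol exporter Abca1 held 14, 17 and 7, Abcc6, which lets ATP out of hepatocytes, 22, 32 and 21, and the peroxisomal pump Abcd3 18, 18 and 10. Under the minimum of 30, the main hepatocyte glucose carrier Slc2a2 held 13, 8 and 4, the organic anion carrier Slc22a7 12, 0 and 11, and the efflux pump Abcg2 0, 15 and 0. Slc13a5, the citrate carrier, and Slc25a20, the carnitine carrier of mitochondria, had 0 counts in all libraries.

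A list of 12 transporters linked in background knowledge to NRF2 or to Wnt signalling held 3 of the 104 genes. The tested ones were Slc22a3, opposite an exon of Plg (74, 52 and 68 counts), and Slc48a1, the heme carrier of lysosomes (0.19 ± 0.50 in MODEL1 and -0.75 ± 0.54 in MODEL2), and edgeR called 0 of the 2 in each comparison, with 0 at an unadjusted p under 0.05. Abcb6, a porphyrin pump, held 26, 19 and 19 counts. Of 33 genes for other membrane transport, such as aquaporins and ATP-driven ion pumps, 3 were tested (Atp1b1, Atp2a2 and Npc1), with 0 called and 0 at an unadjusted p under 0.05 in each comparison. By edgeR, 22.8%, 13.3% and 7.28% of all symbols were called in the 3 comparisons. An unadjusted p under 0.05 was found for 33.6%, 26.2% and 20.7% of them. So few tested genes cannot show that either list was unchanged.

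Among the 49 genes below the filter, all MODEL1 libraries lay above CTRL for 7 and below for 7. The shares over all tested symbols were 18.5% and 17.4%, but those symbols passed the filter that the 49 did not. The sets thus differ in depth, and the shares given here are no like background for the 49. In MODEL2 the numbers above and below were 3 and 4, beside 17.5% and 12.3%. Between the models they were 5 and 6, beside 13.5% and 13.2%. Of the tested 55, 9 lay above and 11 below in MODEL1, 7 and 9 in MODEL2, and 4 and 7 between the models. The genes named next were chosen after their values were seen.

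Abcb1b, one of the mouse genes for the drug efflux pump P-glycoprotein, held 0, 2 and 0 counts in CTRL, 14, 18 and 10 in MODEL1 and 0, 4 and 3 in MODEL2. MODEL1 stood above both other groups. The ratio of scaled counts was 17.8 in MODEL1 (95% counting interval 4.63 to 152), and MODEL2 stood to MODEL1 at 0.185 (0.0700 to 0.415). An exon of Gm5106 covers 1.79% of its exon bases. Slc13a1, a sodium-sulfate carrier known from kidney, held 21, 7 and 9 counts in CTRL, 0, 1 and 1 in MODEL1 and 3, 0 and 0 in MODEL2. Both models lay below CTRL, at ratios of 0.0458 (0.00535 to 0.178) and 0.0761 (0.0150 to 0.240). Slc13a2os, the antisense RNA of Slc13a2, with which it shares 17.4% of its exon bases, held 7, 3 and 16, then 1, 0 and 0, then 3, 7 and 3 counts, low in MODEL1 alone at a ratio of 0.0326 (0.000794 to 0.198) to CTRL.

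Slc1a1, a glutamate carrier, held 2, 0 and 1 counts in CTRL, 3, 6 and 15 in MODEL1 and 4, 11 and 3 in MODEL2, at ratios of 6.78 (2.06 to 35.2) and 5.63 (1.64 to 29.8), and an exon of 4430402I18Rik covers 31.9% of its exon bases. Slc4a4, a sodium-bicarbonate carrier, held 9, 33 and 19 counts in the groups, with MODEL1 above CTRL at a ratio of 3.11 (1.45 to 7.38). Slc51a, a subunit of the basolateral bile acid exporter, held 25, 11 and 7 counts, at ratios of 0.373 and 0.263 in the models, and lies opposite an exon of Pcyt1a (17.7% of its exon bases). Slc46a1, the proton-coupled folate carrier, held 4, 11 and 21 counts, with MODEL2 above CTRL at a ratio of 4.93 (1.66 to 19.7). Intervals cover counting error alone.

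**Figure D5:**
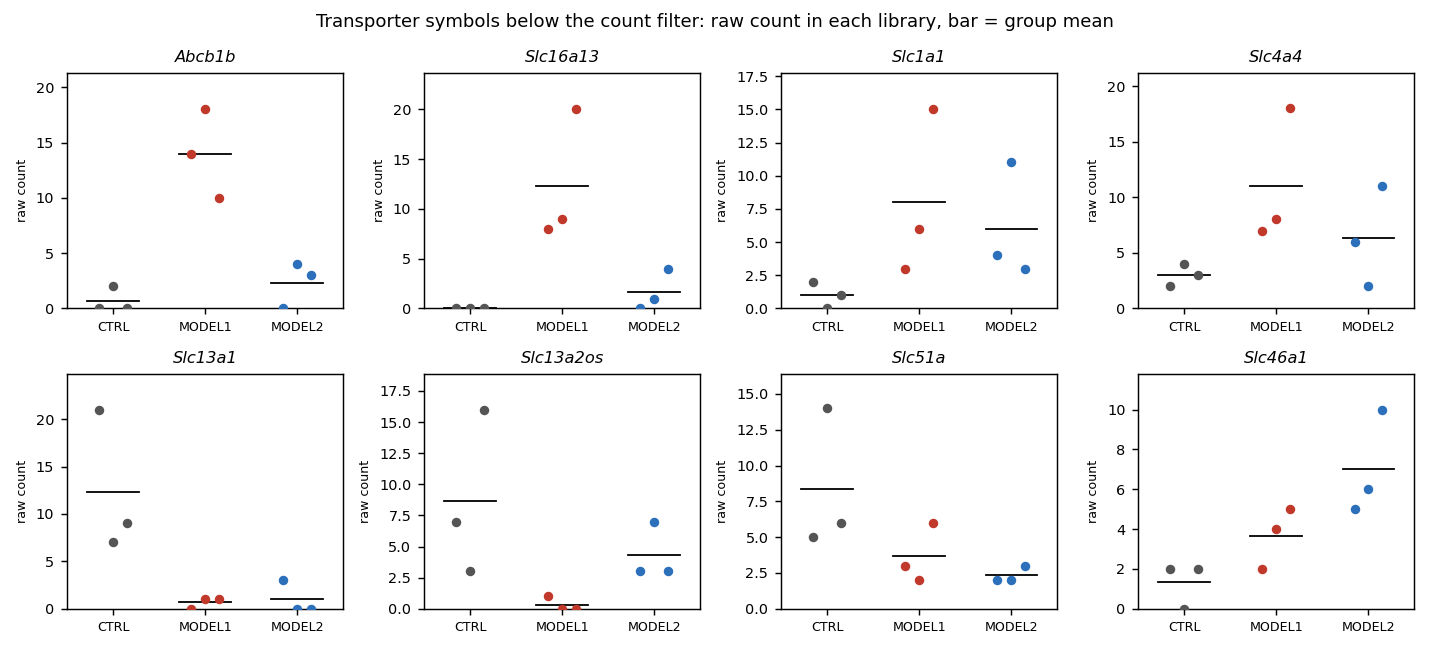
Raw counts per library (y axis, linear from 0, bar at the group mean) of 8 transporter symbols below the count filter. Abcb1b and Slc16a13 are highest in MODEL1, and Slc13a1 is near 0 in both models after 21, 7 and 9 counts in CTRL.

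Some calls rested on which genes entered the fit. With no filter on low counts, the MODEL1 calls of Slc24a1, Slc24a5 and Slc26a1 and the MODEL2 calls of Slc16a1, Slc16a4, Slc17a3 and Slc24a1 ended (edgeR adjusted p 0.0556 to 0.287). With a filter of 1 CPM in 3 libraries the same calls ended, other than that of Slc24a1 in MODEL1 (0.0576 to 0.180). Both settings tested all 104 genes, and each added calls among the 49: Abcb1b and Slc16a13 higher in MODEL1, Slc13a1 and Slc13a2os lower in MODEL1, and Slc13a1 lower in MODEL2. Of all symbols, 4.15% and 2.03% were called in MODEL1 and MODEL2 with no filter, and 6.74% and 3.44% with 1 CPM. With no filter, edgeR adjusted p was 0.0018 for Abcb1b (3.93 ± 0.96), 0.00024 for Slc16a13, 0.00095 and 0.012 for Slc13a1 (-4.19 ± 0.98 and -3.51 ± 0.94) and 0.0027 for Slc13a2os (-4.45 ± 1.11), fits that rest on 0 to 3 counts in one group. When the 2 groups compared were fitted alone, the calls of Slc23a1 and Slc24a5 in MODEL1 and of Slc16a4 in MODEL2 ended (0.0596 to 0.0747). With only symbols free of an opposite-strand exon in the fit, those of Slc23a1 in MODEL1 and of Slc16a4 and Slc17a3 in MODEL2 ended (0.0578 to 0.146).

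Split by annotation, the 24 of the 55 free of an opposite-strand exon had 4 higher and 5 lower in MODEL1 and 5 higher and 3 lower in MODEL2. Over all such symbols the MODEL1 shares were 13.2% and 12%, and those of MODEL2 7.64% and 5.95%. The 31 with one had 4 higher and 0 lower in MODEL1, and 1 higher and 0 lower in MODEL2, beside 11% and 10.2%, and 8.67% and 4.27%, of all symbols with one. Between the models 1 of the 24 and 2 of the 31 were lower, beside 4.56% and 2.7%, and 0 of either were higher, beside 3.37% and 4.02%. The split is a description, since the 2 sets also differ in how many counts they hold.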

How the data were processed

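Liver RNA from 9 male FVB mice was sequenced, 3 per group. The authors deposited raw counts of reads per gene symbol, not normalized. The submitters' processing notes name HISAT2 2.1.0, HTSeq 0.11.2, Trimmomatic 0.38 and build mm10; annotation and strand setting are not given in the sources used here. Groups came from the labels.

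Counts were fitted in R 4.3.3 with edgeR 4.0.16: filterByExpr (minimum count 10), TMM, quasi-likelihood F test over all 9 libraries, 1 coefficient per group, two-sided, Benjamini-Hochberg over 2639 symbols, threshold 0.05, common biological coefficient of variation 0.259. The fit was checked on simulated counts. SE is the log2 fold change over the square root of F. Where a group had 0 counts, folds are ratios to 3 counts over the group and carry no interval. Ratios of scaled counts carry exact 95% intervals that cover counting error alone, as PCR copies of a molecule can be counted more than once. Positions and exon overlaps came from GENCODE M21 for 24008 symbols.

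The genes and lists were chosen with earlier results of these data known. Named were the called genes, the 10 with most counts, the members of the hepatocyte and NRF2 or Wnt lists, and 3 on each side of the minimum; other genes were named after their values were seen. The 19 alternatives covered scaling, DESeq2 1.42.0, filters, age, replicate number, libraries and symbols. The values of 2 of the 104 genes are not reported here.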

Additional observations from a re-analysis of the deposited data

How the results depend on the processing

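Of 25 calls, 5 (2 of them for Slc22a12, at 0 in CTRL) held in all of the 19 alternatives that gave a value, 20 were lost in at least 1, and 0 reversed. The others of the 5 were the MODEL1 calls of Slc22a23, Slc16a11 and Slc38a11. Like Slc22a12, Slc16a11 and Slc38a11 passed the count filter through groups where they were high. RLE size factors, DESeq2 and library sizes without Rn45s lost 0 calls, age as a covariate 18, and leaving out the 3 libraries richest in Rn45s 17; the cause was not tested. With age, genes called numbered 4 higher and 0 lower in MODEL1, 2 and 0 in MODEL2, and 1 lower between the models. Over all symbols the share called with age was 11.3%, 2.73% and 3.83% in the 3 comparisons. The fit without the 3 Rn45s-rich libraries leaves 1 MODEL1 library, assumed to vary like the others, and fewer of all symbols were called in it too. Among symbols with no opposite-strand exon, fewer of which are tested, the genes called were 4 higher in MODEL1, 1 lower in MODEL2 and 1 lower between the models. That fit called 24.8%, 12.6% and 6.25% of all its symbols in either direction. In MODEL2, 1 was lower with no filter and 1 with a filter of 1 CPM in 3 libraries, in both Slc13a1, below the reported filter. These fits called 2.03% and 3.44% of all symbols in MODEL2, in either direction. Leaving out single libraries gave 6 to 10 higher and 2 to 5 lower in MODEL1, 3 to 6 and 0 to 2 in MODEL2, and 0 to 1 and 2 to 3 between the models. Of all symbols, 17.1% to 21.7%, 7.69% to 12.4% and 2.9% to 7.52% were then called in either direction. Replicate numbers are not said to pair the mice. Correlations of deviations were -0.121 to 0.0103 over 9 same-numbered pairs and -0.0612 to 0.0967 over 18 others. At these depths such values cannot exclude a pairing. With the replicate block 7 and 4 genes were called in MODEL1, 6 and 0 in MODEL2 and 3 lower between the models. The share called over all symbols was then 20.6%, 11% and 4.74%. At these depths 3 counts stood for up to 13.6 CPM, and 49 of the 104 genes fell below the reported filter.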
